A study of Rattus norvegicus with 18 samples.

Results

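This account covers 10 genes used as markers of activated fibroblasts and of pericytes in rat tongue: Acta2, Tagln, Vim, Fap, Thy1, Pdpn, Pdgfra, Pdgfrb, Cspg4 and Abcc9. They were taken by their symbols in the annotation of the array, which gave 15 probe sets for 10 genes among 31042 probe sets and 14217 genes in all. For each gene the probe set with the highest mean log2 signal over the 18 samples was described first. A further 5 probe sets name Acta2 together with Actc1, the cardiac actin gene, and were not used. The rule for the members goes by gene name, but they were chosen with earlier results of these data known. The choice among the probe sets of a gene used the mean signal in these samples.

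The study followed oral carcinogenesis in male Sprague Dawley (SD) rats that drank water with 0.002% 4-nitroquinoline-1-oxide (4NQO), a carcinogen that causes lesions of the tongue, and were killed between weeks 14 and 22, when dysplasia or squamous cell carcinoma (SCC) was seen. Normal controls drank distilled water and no carcinogen. Fibroblasts and epithelia of the tongue were collected at the normal, dysplasia and SCC stages, which gave 6 groups of 3 samples, each sample made from the tissue of 3 rats according to the methods, and RNA was measured on Affymetrix rat genome arrays. The epithelial layer was lifted off after dispase digestion and was not sorted. The fibroblasts were the cells of the connective tissue that stuck to plastic within minutes of plating, with no marker used to select them. The paper reports that the purity of both was checked afterwards, by staining for E-cadherin, pan keratin and vimentin. The age of the rats is not stated. The stage is set by the lesion, so duration of exposure and stage cannot be told apart. Whether the fibroblasts and epithelia with the same sample number came from the same rats is not stated.

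Resting fibroblasts of connective tissue carry the receptor Pdgfra and the surface protein Thy1 and hold the intermediate filament protein Vim. When fibroblasts are activated in wounds or tumours they can gain contractile proteins such as Acta2 and Tagln and the surface protease Fap, and in carcinomas such cells are called cancer-associated fibroblasts. Pericytes wrap small blood vessels and are recognised by Pdgfrb, the proteoglycan Cspg4 (NG2) and Abcc9, a regulatory subunit of a potassium channel. Several of these markers are shared: smooth muscle makes Acta2 and Tagln, and keratinocytes and lymphatic endothelium can make the mucin-type glycoprotein Pdpn.

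Among the members, Pdpn, Thy1, Vim and Abcc9 were the 4 that passed the test as higher in SCC epithelia than in normal epithelia, and the promoters of the 3 of them with an entry in the RefSeq table are shown for that reason. Promoter entries were matched for 7 of the 10 members, all but Tagln, Thy1 and Pdgfrb. Each run holds the 250 bases before and the 50 bases after the start of the gene, on the strand of the gene, from build GRCr8. The positions are chr5:160918910-160919209 (minus strand) for Pdpn, chr17:81577011-81577310 (plus strand) for Vim and chr4:177386299-177386598 (minus strand) for Abcc9. Capitals mark matches, on either strand, to 4 short motifs: the GC box GGGCGG, the AP-1 site TGANTCA, the TATA box TATAAA and the CCAAT box CCAAT.
Pdpn: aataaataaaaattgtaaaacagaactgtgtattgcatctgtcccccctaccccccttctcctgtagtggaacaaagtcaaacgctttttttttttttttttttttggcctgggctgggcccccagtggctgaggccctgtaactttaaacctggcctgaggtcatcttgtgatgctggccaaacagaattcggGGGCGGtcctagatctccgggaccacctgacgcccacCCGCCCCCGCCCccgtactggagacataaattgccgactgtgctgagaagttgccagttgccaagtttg
Vim: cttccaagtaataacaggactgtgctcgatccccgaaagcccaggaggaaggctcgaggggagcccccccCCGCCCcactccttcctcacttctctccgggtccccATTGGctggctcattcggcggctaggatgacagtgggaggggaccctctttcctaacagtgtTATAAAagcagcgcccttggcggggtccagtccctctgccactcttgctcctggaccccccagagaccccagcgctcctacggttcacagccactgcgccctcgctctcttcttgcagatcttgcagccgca
Abcc9: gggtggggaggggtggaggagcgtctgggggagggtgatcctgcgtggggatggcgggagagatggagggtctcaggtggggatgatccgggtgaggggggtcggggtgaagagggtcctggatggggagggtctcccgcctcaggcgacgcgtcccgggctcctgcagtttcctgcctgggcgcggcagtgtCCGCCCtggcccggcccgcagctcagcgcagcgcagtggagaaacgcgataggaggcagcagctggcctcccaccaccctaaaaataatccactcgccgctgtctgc
Pdpn held 3 GC boxes, the last 2 of them side by side without overlap. Vim held 1 GC box, 1 TATA box and 1 CCAAT box, and Abcc9 held 1 GC box. The GC box was found in 4 of the 7 member promoters and in 33.1% of the 33469 promoters in the table. The AP-1 site was found in 1 of 7 (Pdgfra) against 7.3% of all promoters, the TATA box in 1 of 7 against 14.2%, and the CCAAT box in 3 of 7 against 37.5%. These matches describe letters in a window and say nothing of binding.

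All values are log2 of the deposited signal, and a difference of 1 is a doubling. The median log2 signal of the 18 arrays lay between 6.53 and 6.86. The labelled layers were checked with marker genes, as the mean log2 signal of a list in each sample. A list of 18 resting fibroblast genes, called the fibroblast list below, lay between 10.90 and 12.05 in the fibroblast samples. It lay between 6.41 and 10.03 in the epithelial samples. A list of 16 epithelial genes lay between 10.37 and 12.48 in the fibroblast samples and between 12.79 and 13.05 in the epithelial samples, so epithelial RNA was measured in every fibroblast sample. Endothelial genes (12) lay between 9.92 and 11.44 in the fibroblasts and between 5.77 and 8.94 in the epithelia. The third fibroblast sample of each stage stood apart from the other two, with epithelial gene means of 10.37 (normal), 11.66 (dysplasia) and 11.46 (SCC), against 12.15 to 12.48 in the other fibroblast samples. Among the epithelia, SCC sample 2 had the highest mean of the fibroblast list (10.03), and normal sample 2 (7.83) stood above normal samples 1 (6.49) and 3 (6.41). In bulk samples of this kind, fewer cells of a type and less RNA per cell cannot be told apart.

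In normal tongue all 10 members were called higher in fibroblasts than in epithelia, and the same count of 10 was called at dysplasia and at SCC. With arrays aligned on the spike-in controls, Cspg4 (-0.089 in normal tongue, -0.50 at dysplasia) and Acta2 (-0.40 at dysplasia) turned to the other direction. Cspg4 at dysplasia was then called lower (adjusted p = 0.0288). That alignment also lost the calls of Acta2 and Pdgfrb in normal tongue, of Pdgfrb at dysplasia, and of Acta2, Pdgfrb and Cspg4 at SCC. A call means a Benjamini-Hochberg adjusted p under 0.05 in limma, over all probe sets tested. Of all probe sets, 27.7% were called higher in fibroblasts in normal tongue, 23.0% at dysplasia and 20.1% at SCC. The median difference over the members was 5.04 in normal tongue, 3.97 at dysplasia and 2.18 at SCC, against -0.15, -0.10 and -0.06 over all probe sets. Pdgfra had the largest difference in normal tongue, with 13.07, 12.88 and 12.68 in normal fibroblasts and 5.57, 6.13 and 5.47 in normal epithelia. Cspg4 had the smallest, with 7.47, 7.55 and 7.22 in normal fibroblasts and 6.71, 6.57 and 6.66 in normal epithelia. The layers did not overlap for either gene.

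**Figure D1:**
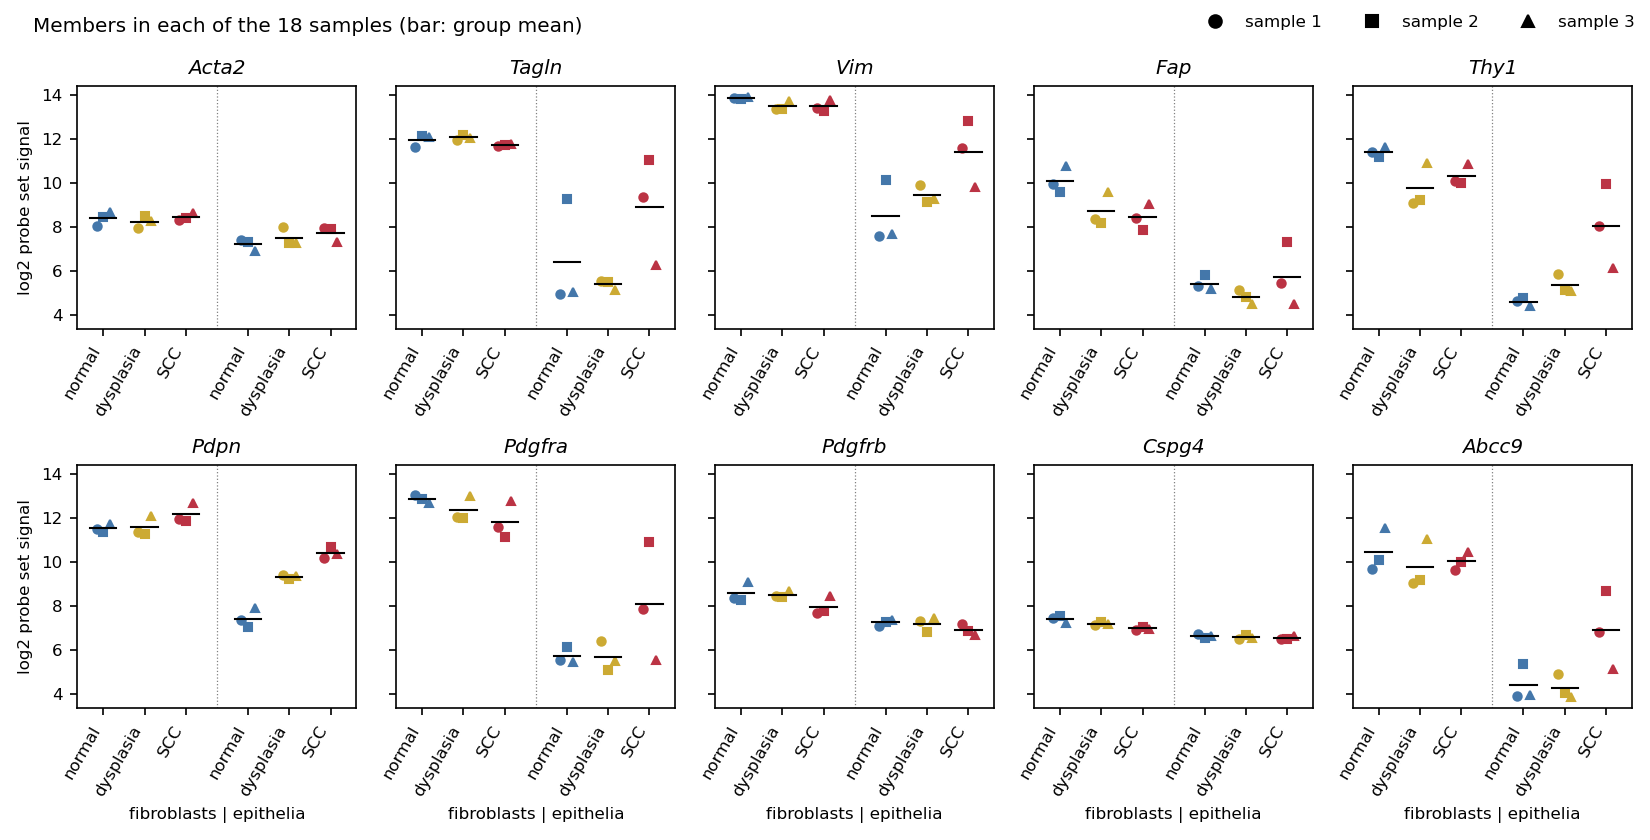
Log2 signal of the brightest probe set of each of the 10 members (y axis) in the 3 fibroblast groups and the 3 epithelial groups (x axis). Points are the 18 samples, with shape for the sample number, and bars are group means; Pdpn in epithelia has 3 stages that do not overlap, while Tagln, Thy1 and Pdgfra are spread widely within SCC epithelia.

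In normal tongue all 10 layer calls held with any 1 sample left out. At SCC, without SCC epithelia sample 3 or without SCC fibroblast sample 3, 6 of the 10 members were called. The 4 members that lost their call in both cases were Acta2 (adjusted p = 0.120 and 0.0926), Tagln (0.214 and 0.0910), Vim (0.103 and 0.0623) and Thy1 (0.0755 and 0.0627). Tagln at SCC was also lost without SCC epithelia sample 1 (0.0634) and SCC fibroblast samples 1 (0.0786) and 2 (0.0783). Acta2 at dysplasia (difference 0.72) was lost without dysplasia epithelia samples 2 (0.0865) or 3 (0.0860) and without dysplasia fibroblast samples 2 (0.0855) or 3 (0.0548). Over all 29 alternatives, the adjusted p ran from 0.000130 to 0.214 for Tagln at SCC and from 0.00246 to 0.224 for Acta2 at dysplasia. For Acta2, Vim and Thy1 at SCC the highest were 0.263, 0.166 and 0.216, and the lowest were 0.0146, 7.83e-05 and 0.000283. With limma on the 2 SCC groups alone, Tagln, Vim, Thy1 and Pdgfra lost their call (adjusted p from 0.0614 to 0.0942). With the methods' t-test only Pdpn and Cspg4 kept theirs at SCC.

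Pdpn was the member called higher in epithelia at both dysplasia and SCC. Its log2 signal was 7.36, 7.04 and 7.90 in normal epithelia, 9.43, 9.22 and 9.37 in dysplasia epithelia, and 10.19, 10.70 and 10.37 in SCC epithelia. No sample of a stage overlapped with another stage. On the brightest probe sets this held for 2 of the 10 members, Pdpn and Thy1, and for 3.15% of all probe sets in the same upward order. The dysplasia samples lay closest together, and normal epithelia had the widest spread of the 3 stages. Pdpn was 1.91 ± 0.22 higher in dysplasia epithelia than in normal epithelia (standard error, adjusted p = 0.00244), which is 3.75-fold. It was the 1 member of 10 called at this step, where 14.5% of all probe sets were called. In SCC epithelia it was 2.99 ± 0.22 higher than in normal epithelia (adjusted p = 0.000135), or 7.94-fold. The step between SCC and dysplasia epithelia, 1.08 ± 0.22, was not called (adjusted p = 0.123), and across that step 0.0258% of all probe sets were called. Both calls held under each of the 20 alternatives, with adjusted p between 0.000347 and 0.0403 at dysplasia and between 2.61e-06 and 0.0203 at SCC. Pdpn has 1 probe set, so for it the alternative with the second probe set only repeated the main fit.

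Markers of other cells were set beside this result. Against normal epithelia, 14.5% of all probe sets were called in either direction at dysplasia, and 12.6% were called higher at SCC. The 18 fibroblast genes averaged 6.49, 7.83 and 6.41 in normal epithelia, 7.64, 6.95 and 6.88 in dysplasia epithelia and 8.36, 10.03 and 7.12 in SCC epithelia, so that the stages overlapped. Normal epithelia sample 2 had the lowest Pdpn of all samples and a fibroblast mean above every dysplasia sample. SCC epithelia sample 3 had the lowest fibroblast mean of its group and a Pdpn level between those of the other SCC samples. The 6 lymphatic endothelial genes, of a cell type that also carries Pdpn, averaged 4.56, 5.31 and 4.70 in normal epithelia, 4.96, 4.35 and 4.41 in dysplasia epithelia, and 5.68, 6.48 and 4.43 in SCC epithelia. The dysplasia samples thus reached no higher than the normal ones on this list. Of these 6 genes 1 was called against normal epithelia, Flt4, a lymphatic growth factor receptor, which was lower at dysplasia (-0.60). The 16 macrophage and monocyte genes averaged 6.08, 5.97 and 6.16 in normal epithelia, 7.25, 6.50 and 6.83 in dysplasia epithelia and 8.50, 9.45 and 7.20 in SCC epithelia, with 3 called higher at dysplasia and 11 at SCC. The mean of this list was thus higher at each stage, apart from dysplasia sample 1 (7.25) and SCC sample 3 (7.20). The 7 neutrophil genes averaged 5.88, 6.30 and 5.94 in normal epithelia, 7.38, 6.78 and 6.93 in dysplasia epithelia and 8.56, 9.23 and 7.71 in SCC epithelia, with no overlap of the stages. Of these 7 genes 2 were called higher at dysplasia and 3 at SCC, with median differences over the 7 of 0.09 and 1.45. The median gene thus changed little at dysplasia, unlike the mean. S100a9 and S100a8, which keratinocytes also make, are in this list and were higher at both stages. The part of these lists in the result was not tested.

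**Figure D2:**
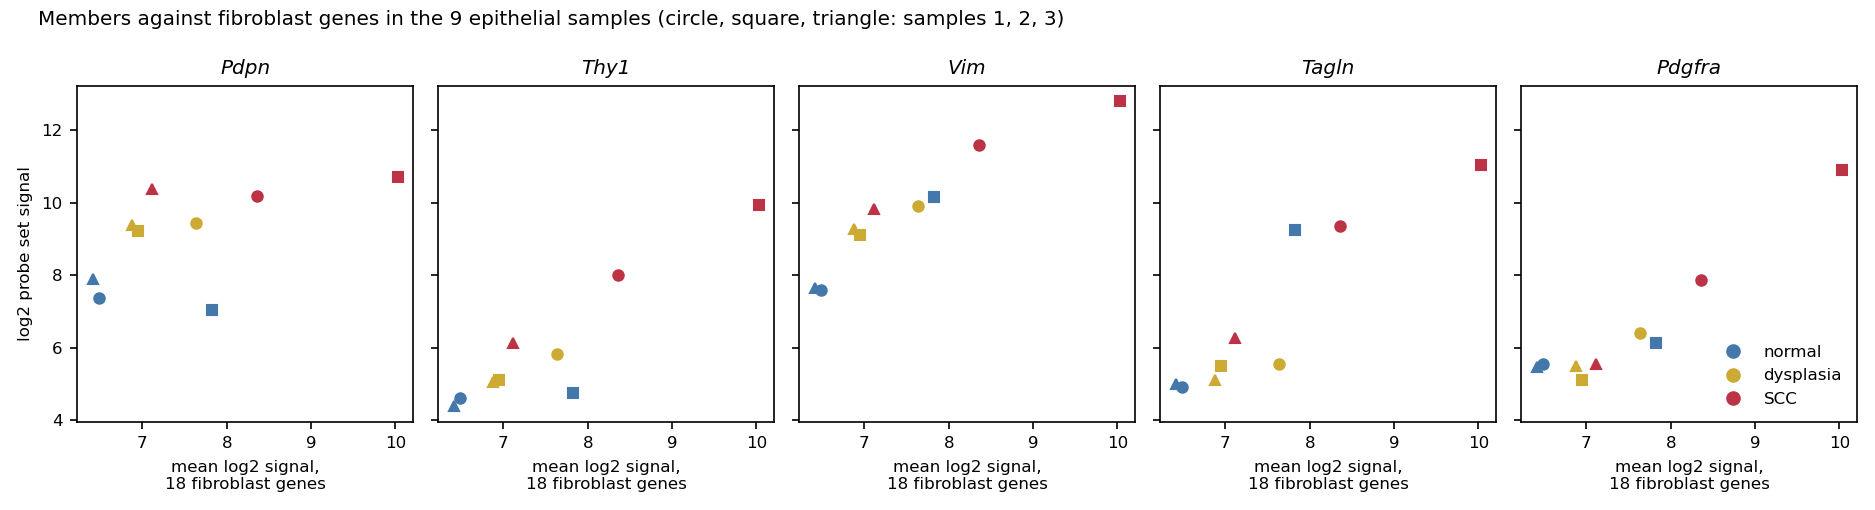
Log2 signal of Pdpn, Thy1, Vim, Tagln and Pdgfra (y axes) against the mean log2 signal of 18 fibroblast genes (x axis) in the 9 epithelial samples, coloured by stage. Drawn by their brightest probe sets, Pdpn and Thy1 lie in 3 separate bands by stage, while Vim, Tagln and Pdgfra overlap between stages. All 5 genes are at their highest in SCC sample 2, where the fibroblast genes averaged 10.03.

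At SCC, 4 of the 10 members were called in epithelia against normal epithelia, all of them higher. Of all probe sets, 12.6% were called higher. The median difference of the members was 2.44, against -0.09 for all probe sets. Besides Pdpn, these were Thy1, Vim and Abcc9. Thy1, a surface glycoprotein of fibroblasts and thymocytes, read 8.01, 9.93 and 6.12 in SCC epithelia and 4.62, 4.74 and 4.38 in normal epithelia. The groups did not overlap, and the SCC samples differed from each other by more than the lowest of them differed from the normal samples. The difference was 3.44 ± 0.76 (adjusted p = 0.0103), or 10.9-fold. Dysplasia epithelia, at 5.83, 5.10 and 5.05, lay above every normal sample, by 0.75 on average, but were not called (adjusted p = 0.551). On the second probe set of Thy1, dysplasia and normal epithelia overlapped, with a difference of -0.094 (adjusted p = 0.902).

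Vim read 11.59, 12.80 and 9.82 in SCC epithelia and 7.60, 10.14 and 7.65 in normal epithelia. SCC sample 3 lay below normal sample 2, so these groups overlapped. The difference was 2.94 ± 0.83 (adjusted p = 0.0272), or 7.66-fold. The call was lost without normal epithelia samples 1 (adjusted p = 0.0893) or 3 (0.0857) and without SCC epithelia samples 1 (0.0666) or 2 (0.0726), within a range of 0.00369 to 0.172 over the 20 alternatives. Thy1 kept its call with any 1 sample left out. Thy1 also has a second, dimmer probe set, on which the difference was 1.16 (adjusted p = 0.0663). Over all 20 alternatives its adjusted p ran from 0.00105 to 0.113.

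Markers of other cells in SCC epithelia are given beside these members. Against normal epithelia, 12.6% of all probe sets were called higher and 17.3% lower. The fibroblast list had 2 of 18 genes called higher, Lum (a collagen-binding proteoglycan, 5.49) and S100a4 (a calcium-binding protein, 2.50), and 1 lower, Tcf21 (-0.40). Its median difference was 1.04. A list of 18 further genes of fibroblast activation had 11 called higher and 1 lower, with a median difference of 1.89. Its largest were the matrix protein Postn (6.10), the fibril-associated collagen Col12a1 (5.06), the collagen cross-linking enzyme Lox (4.91) and the matricellular protein Ccn2 (3.88). Postn read 12.01, 13.30 and 8.18 in SCC epithelia, against 4.64, 6.19 and 4.36 in normal epithelia, with no overlap. Of 12 endothelial genes 2 were called higher, Emcn (2.66) and Ptprb (2.54). The part of these cells in the member results was not tested.

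In dysplasia epithelia 2 of 18 genes of the activation list were called higher and 1 lower, at a step where 14.5% of all probe sets were called. Tnc, a matrix glycoprotein of wound edges, read 10.06, 9.48 and 9.50 in dysplasia epithelia and 8.16, 8.28 and 8.26 in normal epithelia. Tgfb3, a ligand of the TGF-beta family, read 7.17, 6.74 and 7.17 in dysplasia epithelia and 5.76, 6.07 and 5.56 in normal epithelia. Neither gene overlapped between the stages, with differences of 1.44 (adjusted p = 0.00520) and 1.23 (adjusted p = 0.00473). Lrrc15, a membrane protein known from activated fibroblasts, was lower in dysplasia epithelia (-1.59, adjusted p = 0.0367). Tnc and Tgfb3 are thus the genes of this list that were called higher at the same step as Pdpn.

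The contractile markers were not called in any stage comparison as deposited. Acta2 was called for SCC minus dysplasia fibroblasts with arrays aligned on the spike-in controls (0.95, adjusted p = 0.0483, against 0.23 as deposited), and Tagln with array weights for SCC minus dysplasia (-0.42, adjusted p = 0.0306) and SCC minus normal fibroblasts (-0.34, adjusted p = 0.0261), in a fit whose weights did not converge. Acta2, the smooth muscle actin by which myofibroblasts are recognised, read 8.02, 8.44 and 8.68 in normal fibroblasts, 7.93, 8.47 and 8.25 in dysplasia fibroblasts, and 8.32, 8.38 and 8.65 in SCC fibroblasts. The 3 fibroblast stages overlapped, and SCC and normal fibroblasts differed by 0.07 ± 0.21. In epithelia Acta2 read 7.95, 7.88 and 7.29 at SCC and 7.40, 7.31 and 6.89 in normal tissue, a difference of 0.51 ± 0.25 (adjusted p = 0.160).

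Tagln, an actin-binding protein of smooth muscle, read 11.61, 12.13 and 12.08 in normal fibroblasts, 11.96, 12.19 and 12.04 in dysplasia fibroblasts and 11.67, 11.73 and 11.76 in SCC fibroblasts. Every SCC sample lay below every dysplasia sample (difference -0.34 ± 0.16, adjusted p = 0.306), while SCC and normal fibroblasts overlapped (-0.22 ± 0.16, adjusted p = 0.357). In epithelia it had the widest spread of all members in the normal group, with an SD of 2.47. Tagln read 4.93, 9.25 and 5.01 in normal epithelia, 5.54, 5.50 and 5.12 in dysplasia epithelia, and 9.35, 11.03 and 6.27 in SCC epithelia. Normal sample 2 was the 1 normal sample that lay within the SCC range, and it had the highest smooth muscle list mean of the normal epithelia (7.74, against 6.78 in both others). The SCC minus normal difference of 2.48 ± 1.34 was not called (adjusted p = 0.189). Without normal epithelia sample 2 it was 3.91 (adjusted p = 0.0436), and without SCC epithelia sample 3 it was 3.79 (adjusted p = 0.0492), in a range of 0.0436 to 0.461 over the 20 alternatives.

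Of the 18 smooth muscle contractile genes, 3 were called higher and 1 lower in SCC epithelia, against 12.6% and 17.3% of all probe sets. Cald1, an actin-binding regulator of contraction, was higher by 1.11, Pln, an inhibitor of the calcium pump, by 1.10 and Tpm2, a tropomyosin, by 0.37. Synm, an intermediate filament protein, had a difference of -0.87. Among 13 genes of the actin cytoskeleton and targets of the factor SRF, 6 were called in SCC epithelia, all higher. The largest were the focal adhesion protein Zyx (1.49), the actin cross-linker Actn1 (1.18), the LIM-domain protein Fhl2 (0.92) and the filamin Flna (0.74). Zyx read 9.24, 9.53 and 8.89 in SCC epithelia against 7.79, 7.60 and 7.82 in normal epithelia, and these values did not overlap. In contrast to Tagln, normal sample 2 had the lowest Zyx of its group.

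The PDGF receptors were not called between stages in either layer. Pdgfra, the receptor of resting fibroblasts, read 7.86, 10.90 and 5.56 in SCC epithelia and 5.57, 6.13 and 5.47 in normal epithelia. SCC sample 2 was far above the other samples, and SCC sample 3 lay within the normal range. The difference of 2.39 ± 1.08 was not called (adjusted p = 0.124), and without SCC sample 3 it was 3.66 (adjusted p = 0.0120, range over the 20 alternatives 0.0120 to 0.338). In fibroblasts Pdgfra read 13.07, 12.88 and 12.68 in normal tissue, 12.08, 12.03 and 13.00 at dysplasia, and 11.60, 11.15 and 12.79 at SCC. SCC and normal fibroblasts overlapped only through the third samples, and the difference of -1.03 ± 0.41 was not called (adjusted p = 0.113). It was called without SCC fibroblast sample 3 (-1.50, adjusted p = 0.0148, range 0.000298 to 0.417, the lowest with array weights that did not converge).

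Pdgfrb, the receptor through which pericytes are drawn to vessels, has 3 probe sets. On the brightest it read 7.69, 7.77 and 8.46 in SCC fibroblasts and 8.39, 8.30 and 9.12 in normal fibroblasts, with overlap. The difference of -0.63 ± 0.27 was not called (adjusted p = 0.133). It was called without SCC fibroblast sample 3 (-0.87, adjusted p = 0.0396, range 0.00203 to 0.971). On the second probe set the difference between fibroblasts and epithelia in normal tongue was 6.47, against 1.35 on the first. On that probe set SCC epithelia averaged 6.35 ± 1.91 and normal epithelia 4.07 ± 0.52 (SD, n = 3 each), a difference of 2.27 (adjusted p = 0.0571), while on the brightest the difference was -0.35 (adjusted p = 0.204). The probe sets therefore differ in direction for this gene in epithelia, and neither difference was called.

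**Figure D3:**
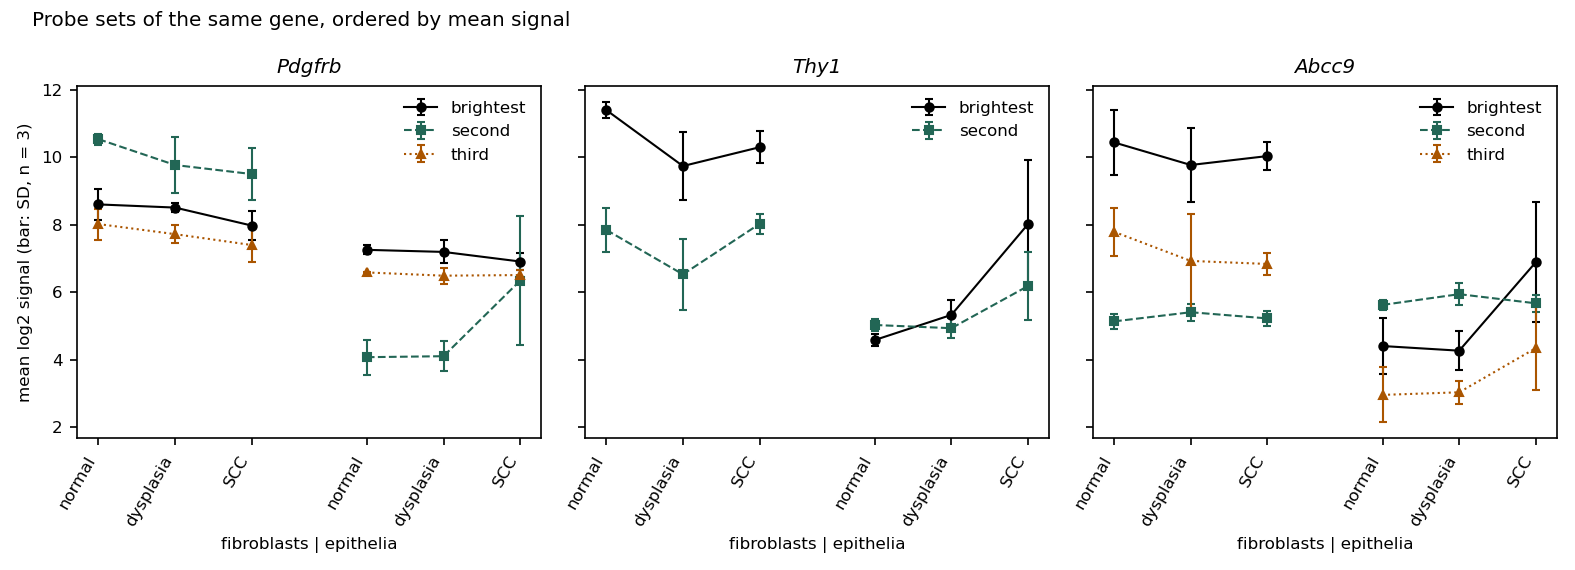
Mean log2 signal (y axis) of each probe set of Pdgfrb, Thy1 and Abcc9 in the 3 fibroblast groups and the 3 epithelial groups (x axis). Bars are SD over 3 samples; the second probe set of Abcc9 lies slightly lower in fibroblasts than in epithelia, while the other 2 probe sets of this gene lie higher in fibroblasts.

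Of the PDGF ligands, 3 were measured. Pdgfa, which binds Pdgfra, read 5.88, 5.63 and 5.94 in normal epithelia, 6.16, 6.29 and 6.36 in dysplasia epithelia, and 6.95, 7.58 and 6.61 in SCC epithelia. The 3 stages did not overlap, and SCC exceeded normal by 1.23 ± 0.22 (adjusted p = 0.00410). Pdgfd, which binds Pdgfrb, read 6.08, 6.10 and 5.89 in SCC epithelia and 6.99, 7.30 and 6.78 in normal epithelia (adjusted p = 0.00188), again without overlap, and so was lower in SCC. Pdgfc was not called between stages in either layer.

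Of the pericyte members, Cspg4 varied little. It read 7.47, 7.55 and 7.22 in normal fibroblasts, 7.12, 7.28 and 7.21 in dysplasia fibroblasts and 6.94, 7.04 and 6.98 in SCC fibroblasts. Every SCC sample lay below every dysplasia sample, and dysplasia and normal fibroblasts overlapped only at normal sample 3. The SCC minus normal difference was -0.43 ± 0.13 and missed the threshold (adjusted p = 0.0545). Without normal fibroblast sample 3 it was -0.53 (adjusted p = 0.0288, range over the 19 alternatives 0.000237 to 0.635). In epithelia the 9 samples lay between 6.50 and 6.71.

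Abcc9 read 3.91, 5.36 and 3.95 in normal epithelia, 4.93, 4.03 and 3.85 in dysplasia epithelia and 6.83, 8.70 and 5.16 in SCC epithelia. SCC sample 3 lay below normal sample 2. The difference of 2.49 ± 0.79 was called (adjusted p = 0.0426) but was lost with 7 of the 9 epithelial samples left out singly. It was lost without normal samples 1 (0.119) or 3 (0.114), dysplasia samples 1 (0.0525), 2 (0.0591) or 3 (0.0599), and SCC samples 1 (0.0836) or 2 (0.0873), within a range of 0.00740 to 0.871 over the 20 alternatives. The second probe set gave 0.05 (adjusted p = 0.871). That probe set also ran the other way between layers, with -0.49 in normal tongue, where the brightest gave 6.04. In fibroblasts Abcc9 read 9.62, 10.03 and 10.46 at SCC and 9.70, 10.09 and 11.54 in normal tissue, with overlap and no call (adjusted p = 0.669).

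Of 15 other pericyte genes, 4 were called higher and 1 lower in SCC epithelia, against 12.6% and 17.3% of all probe sets. Rgs5, a regulator of G-protein signalling that marks pericytes, read 4.55, 5.69 and 4.57 in normal epithelia, 7.48, 6.22 and 5.63 in dysplasia epithelia and 8.78, 10.27 and 7.07 in SCC epithelia. SCC and normal samples did not overlap, and the difference was 3.77 ± 0.76 (adjusted p = 0.00700). The others were Angpt2 (3.19) and Angpt1 (1.73), ligands of the endothelial receptor Tie2, and the metalloreductase Steap4 (2.84). In SCC fibroblasts 1 of 15 was called higher and 2 lower than in normal fibroblasts, against 7.82% and 7.43% of all probe sets. These were Ndufa4l2, a mitochondrial protein (0.85), the amine oxidase Aoc3 (-1.33) and Gucy1a1, a subunit of guanylate cyclase (-0.99).

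In fibroblasts, 1 of the 10 members was called between SCC and normal, Fap, which was lower. Of all probe sets 7.43% were called lower in this comparison. Fap, a surface protease by which cancer-associated fibroblasts are often recognised, read 9.94, 9.58 and 10.77 in normal fibroblasts, 8.37, 8.15 and 9.57 in dysplasia fibroblasts and 8.39, 7.85 and 9.04 in SCC fibroblasts. Every SCC sample and every dysplasia sample lay below every normal sample, and in each group sample 3 was the highest. SCC fibroblasts were lower than normal fibroblasts by 3.18-fold (log2 difference -1.67 ± 0.45, adjusted p = 0.0398). The call was lost without normal samples 1 (0.0856), 2 (0.0616) or 3 (0.0913), dysplasia sample 1 (0.0558) and SCC samples 1 (0.121) or 2 (0.145), within a range of 0.000617 to 0.145 over the 20 alternatives.

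The other fibroblast members were not called at SCC, and 7 of the 10 had an unadjusted p under 0.05, against 33.7% of all probe sets. With the sample number as a block, 4 more were called, Thy1 (adjusted p = 0.0303), Pdpn (0.0191), Pdgfrb (0.0256) and Cspg4 (0.0413), against 23.9% of all probe sets. The median difference of the members was -0.42, against -0.05 for all probe sets. Thy1 read 11.39, 11.18 and 11.65 in normal fibroblasts, 9.10, 9.22 and 10.91 in dysplasia fibroblasts and 10.06, 9.99 and 10.84 in SCC fibroblasts. SCC and normal samples did not overlap (difference -1.10 ± 0.45, adjusted p = 0.122). On its second probe set the difference was 0.18 (adjusted p = 0.832). Pdpn was the member with the largest positive difference, with 11.98, 11.89 and 12.71 in SCC fibroblasts and 11.51, 11.37 and 11.75 in normal fibroblasts (0.65 ± 0.27, adjusted p = 0.131), and the groups were apart. Vim read 13.42, 13.27 and 13.75 in SCC fibroblasts and 13.88, 13.79 and 13.90 in normal fibroblasts (-0.38 ± 0.17, adjusted p = 0.148).

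Between dysplasia and normal fibroblasts 0 of 10 members were called by limma, against 0.171% of all probe sets, and 3 members had an unadjusted p under 0.05, as did 5600 of all 31042 probe sets. With the sample number as a block, Fap (-1.40, adjusted p = 0.0112) and Thy1 (-1.66, adjusted p = 0.0298) were called at this step, against 4.67% of all probe sets. Between SCC and dysplasia fibroblasts 0 were called, against 1.85% of all probe sets, and 0 had an unadjusted p under 0.05, against 17.4%. These counts turned on the third samples. For Thy1 at dysplasia, samples 1 and 2 read 9.10 and 9.22 and sample 3 read 10.91. Without dysplasia fibroblast sample 3 its difference from normal was -2.24 (adjusted p = 0.0163), and its SCC minus normal difference of -1.10 was called (adjusted p = 0.0201). With the third sample of all 3 stages left out, a choice made after seeing the data, 5 members were called lower at dysplasia than in normal fibroblasts (Vim, Fap, Thy1, Pdgfra and Abcc9), while the share of all probe sets called became 26.5%. At SCC 7 were then called against normal, with Pdpn higher and Vim, Fap, Thy1, Pdgfra, Pdgfrb and Cspg4 lower, and 4 against dysplasia, beside 42.3% and 16.2% of all probe sets. Thy1 at dysplasia then differed from normal by -2.12 (adjusted p = 0.000520).

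**Figure D4:**
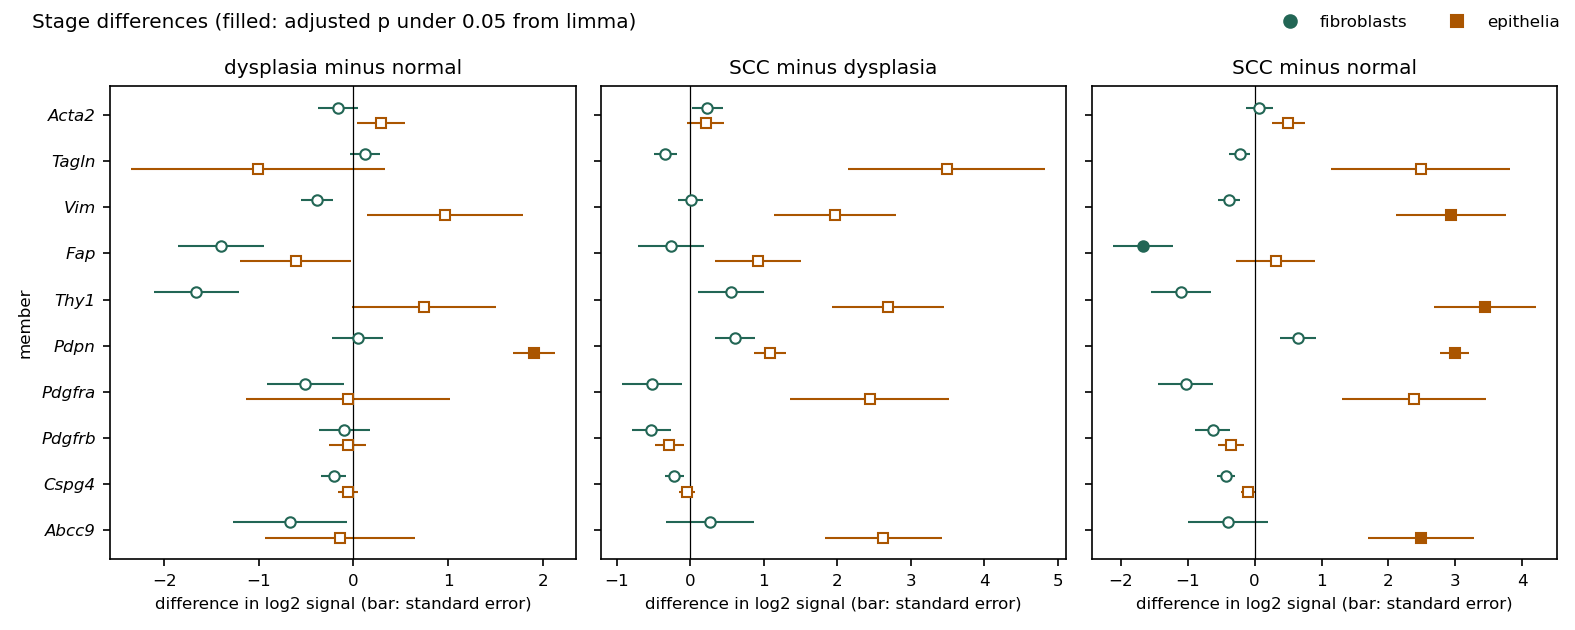
Difference in log2 signal between stages (x axes) for each member (y axis), with fibroblasts drawn above epithelia, bars for standard errors and filled symbols for adjusted p under 0.05. In fibroblasts the 1 filled symbol is Fap at SCC minus normal (-1.67), while in epithelia Pdpn is filled at dysplasia and Pdpn, Thy1, Vim and Abcc9 at SCC.

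Other fibroblast genes were set beside these. Of all probe sets, 7.82% were called higher and 7.43% lower in SCC than in normal fibroblasts. Of the 18 activation genes 2 were called at SCC, both lower than in normal fibroblasts: the collagen receptor subunit Itga11 (-2.01) and the fibronectin Fn1 (-0.89). Itga11 read 10.05, 9.83 and 10.21 in normal fibroblasts, 8.71, 8.70 and 9.47 in dysplasia fibroblasts and 7.85, 7.53 and 8.69 in SCC fibroblasts, and normal samples lay above all others. Of the 18 resting fibroblast genes 3 were called lower, Pi16, a marker of adventitial fibroblasts (-2.09), the collagen Col14a1 (-1.80) and the matrix protein Dpt (-0.96). The fibroblast list averaged 11.16, 10.90 and 11.66 in SCC fibroblasts and 11.85, 11.77 and 12.05 in normal fibroblasts. Beside these, 6 of 7 neutrophil genes were called higher in SCC fibroblasts, led by Lcn2 (5.21) and Csf3r (3.98), with list means of 10.46, 10.55 and 10.64 against 7.63, 7.48 and 8.16 in normal fibroblasts. The signal of the actin control at its 3′ end exceeded that at its 5′ end by 1.14 to 1.26 in SCC fibroblasts and by 1.51 to 2.02 in normal fibroblasts. The part of these in the member results was not tested.

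Whether the stages moved a member differently in the 2 layers was tested as the change in fibroblasts minus the change in epithelia. For SCC against normal, 3 of the 10 members were called, all with a lower change in fibroblasts, against 7.12% of all probe sets called in that direction. They were Thy1 (-4.54 ± 0.96, adjusted p = 0.00557), Vim (-3.32 ± 0.91, adjusted p = 0.0224) and Pdpn (-2.34 ± 0.37, adjusted p = 0.000871). For dysplasia against normal 1 was called, Pdpn (-1.86 ± 0.37, adjusted p = 0.0128), against 1.93% of all probe sets. For SCC against dysplasia 0 were called by limma, against 0.651% of all probe sets, with 5 members at an unadjusted p under 0.05, against 12.9% of all probe sets. Pdpn kept both calls under each of the 27 alternatives, but it has no second probe set to test. Vim lost its call without normal epithelia samples 1 (0.0579) or 3 (0.0591), SCC epithelia sample 2 (0.0510) or SCC fibroblast sample 2 (0.0552), within 0.000303 to 0.0591. Thy1 lost it on the second probe set (-0.98, adjusted p = 0.367, lowest 8.12e-05), while Pdgfrb was called on its second (-3.31, adjusted p = 0.0324), against -0.28 on the first. With the sample number as a block, Fap (-1.98, adjusted p = 0.0217) and Abcc9 (-2.89, adjusted p = 0.0196) were called too. Without SCC epithelia sample 3, Tagln (-4.01, adjusted p = 0.0366), Fap (-2.62, 0.0237), Pdgfra (-4.69, 0.00404) and Abcc9 (-3.76, 0.0162) were called as well, which made 7. The share of all probe sets called in that fit is not given here, so the count is not read as a result about the members.

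The members' patterns were compared over the 9 samples of a layer, which share their stages and dissection, so the correlations are given as a description. In fibroblasts Vim ran with Fap (Pearson r = 0.944) and Thy1 (0.933), and these followed the mean of the 18 fibroblast genes (0.972 for Vim, 0.958 for Fap and 0.873 for Thy1). Tagln correlated at 0.058 with Vim and at 0.847 with the smooth muscle list. Abcc9 ran with the pericyte list (0.931) and nearly as closely with the fibroblast activation list (0.890). For Pdpn the values were 0.026 with Fap and 0.147 with the fibroblast list. They were higher with the fibroblast activation list (0.594), the actin cytoskeleton list (0.633), the neutrophil list (0.663) and the PDGF ligands (0.713). In epithelia Abcc9 ran with the pericyte list (0.989), the endothelial list (0.980), the fibroblast list (0.971) and Pdgfra (0.958). Tagln ran with the smooth muscle list (0.983), and also with the pericyte list (0.926) and the fibroblast list (0.913). Pdpn correlated with the fibroblast list at 0.552 and with the fibroblast activation list at 0.692. Its values were 0.837 with the macrophage list, 0.890 with the neutrophil list and 0.894 with the actin cytoskeleton list. SCC sample 2 was the highest of the 9 epithelial samples for Tagln, Vim, Fap, Thy1, Pdpn, Pdgfra and Abcc9.

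The genes most like each member were found among about 9235 genes with a mean log2 signal above 7. For Pdpn in epithelia these were Sprr2d, a small proline-rich protein of the keratinocyte envelope (r = 0.994), Ap2a2, a subunit of the clathrin adaptor (0.993), and the inositol kinase Itpk1 (0.992). For Tagln in epithelia they were Mylk, the kinase of smooth muscle myosin (0.982), Irag1 and Myl9 (0.957 each). For Vim they were Serping1, Prss23 and the collagen Col1a2 (0.986 to 0.988), and for Abcc9 Col4a2, a collagen of basement membranes, Lrg1 and Fbn1 (0.991 to 0.992). In fibroblasts Fap was most like Txndc5, Atp8b2 and Calu (0.996 to 0.997), Pdgfra most like the endocytic receptor Lrp1 (0.996), and Pdpn most like Odc1, the first enzyme of polyamine synthesis (0.988), Irx3 (0.962) and Serpinb9 (0.958). These are the highest of all values of r over 9 samples, so that their size is a matter of selection.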

How the data were processed

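RNA of 18 samples (6 groups of 3) was measured on Affymetrix rat genome arrays. The deposited values are intensity values on a linear scale, 1 per probe set and array, with a minimum of 1 on every array. The submitters' processing notes name Affymetrix Expression Console and RMA, without versions; how the authors returned to a linear scale is not stated, and detection calls were not used. The intensities were log2-transformed with no further normalization. The table holds 31099 probe sets; without its 57 controls, 31042 were tested. The platform annotation gives 1 gene for 20826 probe sets, several for 436 and none for 9780, and genes were named only from probe sets with 1.

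Groups came from the sample titles. Stage comparisons were fitted with limma 3.58.1 (R 4.3.3) within a layer (9 arrays), and layer differences and differences of changes over all 18 arrays, giving 12 comparisons with Benjamini-Hochberg adjustment. An exact permutation test of 3 against 3 cannot go below p = 0.1, so none was run. P-values measure the spread between these samples, and the tests over all 18 arrays pool 1 spread over the 6 groups. The median SD of the members was 1.46 in SCC epithelia and 0.26 to 0.42 in the other groups. The members and marker lists were chosen with earlier results of these data known. All 10 members are given in every comparison. Of each other list, up to 4 called genes with the largest difference are named, and the 3 genes most like a member come from Pearson's r. Alternatives were quantile normalization, alignment on spike-in controls, a filter on dim probe sets, variance trend with robust fitting, array weights, the methods' t-test, other sample sets, the second probe set, a replicate block and each array left out. For a gene with 1 probe set, the alternative with the second probe set repeats the main fit. The fit was tested on simulated data. Deviations of same-numbered arrays correlated above 0.1 in every pair of SCC and dysplasia fibroblasts (0.321 to 0.592 over all probe sets). For dysplasia and normal fibroblasts (0.026 to 0.194) and SCC and normal fibroblasts (0.066 to 0.229) this held only among brighter probe sets, whose log2 signal averaged more than 7 (0.122 to 0.321 and 0.180 to 0.362), and in the other stage and layer comparisons over neither set. Between SCC and dysplasia fibroblasts, arrays of different number reached 0.352 over all probe sets. There 4 of 6 arrays correlated best with their own number. Among the brighter probe sets it was 6 of 6, with 0.584 to 0.703 for the same number and up to 0.572 for different numbers. For dysplasia and normal fibroblasts, and for SCC and normal fibroblasts, it was 5 of 6 over either set. The sources do not say that numbers pair samples, so the fibroblast results whose call the block changes carry both values. Array intensity carries no read depth, and the number of arrays limits the precision.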

Additional observations from a re-analysis of the deposited data

Results flagged for a closer look

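For 3 members the change with stage differed between fibroblasts and epithelia by a direct test in limma, and these 4 results are given as the fibroblast change minus the epithelial change in log2 signal. Pdpn differed at dysplasia minus normal (-1.86, adjusted p = 0.0128) and at SCC minus normal (-2.34, adjusted p = 0.000871). As deposited, Pdpn was called higher in epithelia at both stages and in fibroblasts at neither. For SCC minus normal fibroblasts it was called under 4 of the 20 alternatives. With the sample number as a block the difference was 0.65 (adjusted p = 0.0191). Thy1 differed at SCC minus normal (-4.54, adjusted p = 0.00557), where the difference was -1.10 in fibroblasts and 3.44 in epithelia. Vim differed at SCC minus normal (-3.32, adjusted p = 0.0224), with -0.38 in fibroblasts and 2.94 in epithelia. No group had 4 or more samples, so single samples were not tested as outliers.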

How the results depend on the processing

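Of the 120 member comparisons 40 were called, and 17 of these kept their call and direction under every alternative run, among them all 4 results for Pdpn across stages. Members with 1 probe set, Pdpn among them, could not lose a call on a second probe set. With each array left out singly, the count of members called ran from 0 to 1 for dysplasia minus normal, 0 to 0 for SCC minus dysplasia and 0 to 3 for SCC minus normal in fibroblasts, and from 1 to 1, 0 to 2 and 2 to 6 for the same steps in epithelia. It ran from 10 to 10, 9 to 10 and 6 to 10 for the layers at the normal, dysplasia and SCC stages, and from 1 to 1, 0 to 1 and 2 to 7 for the differences of change at dysplasia minus normal, SCC minus dysplasia and SCC minus normal. These counts stand without the share of all probe sets called in each fit, so they describe the fits and not the members.

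Array weights gave 5, 5 and 8 called members in fibroblasts at dysplasia minus normal, SCC minus dysplasia and SCC minus normal, and 3, 2 and 8 for the differences of change, but called 9633 probe sets in all at the first of these steps, where 53 were called without weights. The weights of the fibroblast fit did not reach their convergence tolerance, so these 3 fibroblast counts and the p-values behind them are uncertain. Without the third fibroblast samples the 3 fibroblast counts were 5, 4 and 7 (8232, 5019 and 13130 probe sets in all, against 53, 573 and 4733). The replicate block gave 2 for dysplasia minus normal and 5 for SCC minus normal in fibroblasts, and 5 for the difference of change at SCC minus normal, and 0 for SCC minus dysplasia in fibroblasts. Over all probe sets it called 1449, 7405, 6363 and 846 in these comparisons, against 53, 4733, 5126 and 573. With it Acta2 was not called between layers at dysplasia (adjusted p = 0.0767) or SCC (0.0865). The methods' t-test gave 0 for SCC minus normal in fibroblasts, 1 in epithelia and 2 between layers at SCC, after Benjamini-Hochberg adjustment, and called 884, 4631 and 5204 probe sets in all, against 4733, 9267 and 11882 with limma. Fits of the 2 groups alone gave 2, 2 and 6 for these comparisons, the second probe set 2 in SCC epithelia, and 1 fit of all 18 arrays 2 for SCC minus normal fibroblasts (7566 probe sets in all). Without normal and SCC epithelia samples 2, 2 members were called for the difference of change at dysplasia minus normal. Where a count in this paragraph has no total over all probe sets beside it, it describes the fit and not the members.

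Spike-in alignment moved the median of all probe sets by -1.12 to 0.81 (quantile normalization by -0.08 to 0.05). It gave 3 members for SCC minus dysplasia in fibroblasts (9161 probe sets in all), and turned the layer difference of Cspg4 to -0.089 in normal tongue and -0.50 at dysplasia, and that of Acta2 to -0.40 at dysplasia. The share of calls that were higher in SCC than in normal fibroblasts was 97.9% under it, against 51.3% as deposited, and the share higher in fibroblasts than in epithelia was 14.8%, 8.0% and 28.6% at the normal, dysplasia and SCC stages, against 43.7%, 45.7% and 52.6%. That share was 99.9% against 82.5% for SCC minus dysplasia in fibroblasts, 69.6% against 48.1% for dysplasia minus normal in epithelia, and 26.7% against 53.2% and 92.4% against 56.9% for the differences of change at dysplasia minus normal and SCC minus normal. Quantile normalization gave 41.0% for the layers at SCC. The second probe set of Abcc9 gave layer differences of -0.49, -0.54 and -0.45 at the normal, dysplasia and SCC stages. The cause was not tested. With 3 samples a group, and without detection calls, differences of dim probe sets are least certain.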

Other observations

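Some mast cell genes differed between stages in the fibroblast samples and are given here as values that no comparison of the members uses. Mcpt10, a mast cell protease, was higher than in normal fibroblasts by 3.62 at dysplasia (adjusted p = 0.000826) and by 4.68 at SCC (adjusted p = 3.64e-05). At SCC the tryptase Tpsab1 (3.22) and the chymase Mcpt1 (2.06) were higher too, which made 3 of 8 listed genes. Of all probe sets, 7.82% were called higher in SCC than in normal fibroblasts. T cell genes also differed, with 4 of 8 called higher in SCC than in normal fibroblasts, among them Cd2 (1.66), Cd3e (1.36) and Cd3g (1.11). Skeletal muscle genes averaged 8.38, 8.45 and 8.18 in dysplasia fibroblasts and 7.47, 7.67 and 7.38 in normal fibroblasts. Of 19 such genes 1, the oxygen-binding protein Mb, was called higher at dysplasia (1.67), against 0.116% of all probe sets.

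In epithelia S100a9 and S100a8, calcium-binding proteins of neutrophils that keratinocytes also make, were higher than in normal epithelia at dysplasia (4.82 and 2.59) and at SCC (6.77 and 4.05). The claudin Cldn1, a tight junction protein, was lower at both stages (-0.79 and -0.81).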
